A study of Mus musculus with 12 samples.

Results

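Expression of 6 genes of the mature dendritic cell, the chemokine receptor gene Ccr7, the chemokine genes Ccl17 and Ccl22, and the costimulatory genes Cd40, Cd80 and Cd86, was followed in mouse lung CD11c+ cells. The genes were chosen by name, with no threshold on their values, and were 6 of the 754 endogenous genes on the panel. The cells came from the lungs of RELMa-/- mice 10 days after infection with 500 L3 larvae of Nippostrongylus brasiliensis, a nematode of rodents that passes through the lung. RELMa is a secreted protein of macrophages and epithelium that is induced in type 2 immunity, and these mice cannot make it. After a night at 37 °C in medium with 10% serum, serum was reduced to 1%, a step that lasted 2 h by the design text and 1 h by the growth protocol. They then received 500 ng/ml recombinant RELMa (rRELMa) or PBS for 4 h.

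The 12 samples fell into 4 groups of 3, named by a run and a treatment: run 2 rRELMa, run 2 PBS, run 1 rRELMa and run 1 PBS. All 4 groups carried the RELMa deletion and the infection, and uninfected or RELMa-sufficient mice were not analysed here. The CD11c gate takes both dendritic cells and alveolar macrophages, which carry the same integrin in the lung. What distinguishes the runs is not stated, and the labels do not say that the 3 samples of a group are different animals or cultures. The p-values below thus reflect sample-to-sample spread that may be technical.

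Dendritic cells that have met a stimulus mature: they take up less antigen, display more of it and leave the tissue for the lymph node. CCR7 is the receptor that guides this migration along CCL19 and CCL21, while CCL17 and CCL22 are released by the dendritic cell and attract T cells that bear CCR4, among them type 2 helper and regulatory T cells. CD80 and CD86 bind CD28 and CTLA-4 on T cells, and CD40 receives the CD40 ligand signal from helper T cells and passes it through TRAF proteins to NF-kB. Interleukin-4 acting through Stat6 is a known inducer of Ccl17 and Ccl22 in macrophages and dendritic cells.

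In GRCm38.p6 coordinates from RefSeq, Ccr7 lies on chromosome 11 from 99144199 to 99155077 and Cd40 on chromosome 2 from 165055614 to 165071654. The other 4 genes form pairs on shared chromosomes. Ccl22 (chromosome 8, 94745684 to 94751388) and Ccl17 (chromosome 8, 94809380 to 94812038) stand 57.99 kb apart. Cd86 (chromosome 16, 36568956 to 36666158) and Cd80 (chromosome 16, 38457430 to 38495958) are 1791 kb apart. The sources used here do not give the positions of the panel's probes within these genes.

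The promoters of the chemokine pair are shown because Ccl17 and Ccl22 are neighbours and share the Stat6 input, yet had different profiles across the samples. Of the 6 genes, 3 (Ccl17, Ccl22 and Cd80) had an entry in the RefSeq promoter table, each running from 250 bases before to 50 after a transcription start. The Ccl22 window spans the first base of its gene as given above, while the Ccl17 window lies inside its gene. The stretch before the Ccl17 gene is thus not covered. The Ccl17 window is chr8:94810203-94810502 and the Ccl22 window chr8:94745434-94745733, both on the plus strand. Both are printed 5′ to 3′, and capitals mark matches to the STAT motifs named next.
Ccl17: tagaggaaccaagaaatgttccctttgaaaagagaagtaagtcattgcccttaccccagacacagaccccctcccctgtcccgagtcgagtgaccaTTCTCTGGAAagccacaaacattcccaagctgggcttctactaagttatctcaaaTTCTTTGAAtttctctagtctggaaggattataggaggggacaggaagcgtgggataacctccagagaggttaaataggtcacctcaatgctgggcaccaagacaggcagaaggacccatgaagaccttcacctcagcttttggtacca
Ccl22: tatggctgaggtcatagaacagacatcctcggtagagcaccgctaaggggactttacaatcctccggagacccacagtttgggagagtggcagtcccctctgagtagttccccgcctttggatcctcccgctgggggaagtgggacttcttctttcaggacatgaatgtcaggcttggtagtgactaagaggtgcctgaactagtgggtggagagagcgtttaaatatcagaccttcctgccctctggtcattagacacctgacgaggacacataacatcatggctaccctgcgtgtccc
Both strands were searched for TTCNNNNGAA, the spacing that Stat6 prefers, for TTCNNNGAA, the spacing other STAT proteins prefer, and for the NF-kB consensus. The Ccl17 window held TTCNNNNGAA once, as TTCTCTGGAA from -154 to -145 relative to the start, and TTCNNNGAA once, as TTCTTTGAA from -99 to -91. The 2 matches do not overlap. The Ccl22 and Cd80 windows held none of the 3 motifs. Among all 32851 promoters of that length in the table, 6.95% held TTCNNNNGAA, 8.3% held TTCNNNGAA and 8.46% held the NF-kB consensus. A match is a stretch of letters and not evidence of binding.

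RNA was measured with the NanoString nCounter Myeloid Innate Immunity Panel, in which a colour-coded probe pair hybridises to each transcript and each barcode is counted singly, without amplification. The deposited values were raw counts. Endogenous counts summed to 411169 to 765719 in run 2 and 179719 to 257415 in run 1. Divided by the summed counts of the spiked positive controls, these totals came to 6.76 to 9.32 for run 2 samples and 1.39 to 1.88 for run 1 samples. The levels below are counts scaled by TMM, and genes with a mean raw count of at least 20 over the 12 samples were tested with edgeR's quasi-likelihood test. Of the 6 genes 5 passed this minimum, and Cd40, with a mean raw count of 19.4, did not. A gene was called at a Benjamini-Hochberg adjusted p under 0.05 over all 415 tested genes.

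Background sets how low a level can be read, and it differed between the runs once the counts were scaled. The 8 negative control probes averaged 6.90 to 8.45 scaled counts in run 2 rRELMa samples, 7.19 to 8.87 in run 2 PBS, 19.6 to 21.9 in run 1 rRELMa and 19.2 to 26.5 in run 1 PBS. A sample's detection limit was placed 2 SD above the mean of its negative controls, at 16.1 to 31.1 raw counts. Ccr7, Ccl17, Ccl22, Cd80 and Cd86 were above it in 12 of 12 samples, and Cd40 in 3 of 12.

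**Figure D1:**
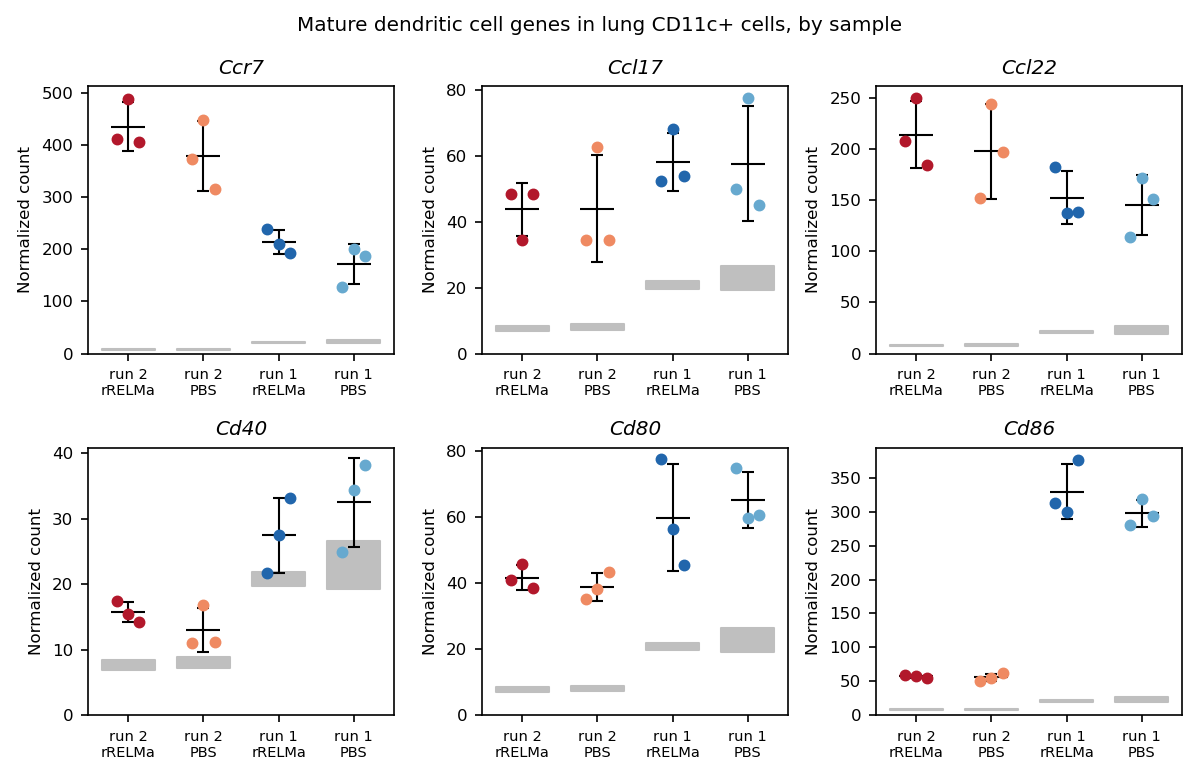
TMM-scaled counts (vertical axes, linear, a separate scale for each gene) of the 6 genes in each of the 12 samples, with points for samples, a long bar for the group mean, error bars for the SD (n = 3) and grey bands for the range of the negative control mean. Ccr7 was high and Cd86 low in both run 2 groups with no overlap with run 1, while Cd40 sat close to the grey band.

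Ccr7, the migration receptor, was the gene of this set most raised in run 2. It had 410.3, 489 and 405 scaled counts in run 2 rRELMa samples and 373, 448 and 314 in run 2 PBS samples. It had 238, 210.2 and 192 in run 1 rRELMa samples and 128, 199.9 and 188 in run 1 PBS samples. Every run 2 sample was above every run 1 sample, while rRELMa and PBS samples overlapped within each run. The group means were 435 ± 46.8 in run 2 rRELMa, 378 ± 67 in run 2 PBS, 214 ± 23.2 in run 1 rRELMa and 172 ± 38.3 in run 1 PBS (SD, n = 3 each). In bulk lysates such as these, fewer cells of a type and less RNA per cell cannot be told apart.

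Ccl22, one of the 2 CCR4 ligands, showed a smaller step between the runs. Its levels were 208, 250 and 185 in run 2 rRELMa samples and 152, 245 and 197 in run 2 PBS samples. They were 182, 138 and 139 in run 1 rRELMa samples and 114, 172 and 151 in run 1 PBS samples. The rRELMa groups of the 2 runs did not overlap, though the gap between the lowest run 2 sample and the highest run 1 sample was small, and the PBS groups overlapped.

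Ccl17, the other CCR4 ligand, was low everywhere and varied more within groups than between them. It had 48.4, 34.5 and 48.4 scaled counts in run 2 rRELMa samples and 34.4, 62.7 and 34.6 in run 2 PBS samples. It had 52.4, 68.1 and 53.8 in run 1 rRELMa samples and 49.9, 77.6 and 45.2 in run 1 PBS samples. In 3 of the 4 groups replicate 2 was the highest sample, and in run 2 rRELMa it was the lowest. With each sample's negative control mean subtracted, the group means were 36.1 in run 2 rRELMa, 35.7 in run 2 PBS, 37.4 in run 1 rRELMa and 34.8 in run 1 PBS, so the step between the runs was not seen after the subtraction.

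Cd86, a ligand of CD28, had the widest range. It had 59.5, 57.0 and 54.8 scaled counts in run 2 rRELMa samples and 50.3, 55.0 and 61.3 in run 2 PBS samples. It had 312, 300.1 and 376 in run 1 rRELMa samples and 279.9, 319 and 294 in run 1 PBS samples. Every run 1 sample was far above every run 2 sample, and the treatments overlapped within each run. The difference was present before scaling: run 2 libraries were deeper, yet Cd86 had 55 to 96 raw counts there and 157 to 214 in run 1.

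Cd80, the second CD28 ligand, had 40.9, 45.8 and 38.5 scaled counts in run 2 rRELMa samples and 35.1, 38.1 and 43.5 in run 2 PBS samples. It had 77.6, 56.5 and 45.5 in run 1 rRELMa samples and 74.9, 59.7 and 60.7 in run 1 PBS samples. The PBS groups of the 2 runs did not overlap, and the rRELMa groups did. After subtraction of the negative controls the group means moved closer together, at 34.1 in run 2 rRELMa, 30.7 in run 2 PBS, 39.2 in run 1 rRELMa and 42.4 in run 1 PBS.

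Cd40, the receptor for the T-cell signal, stayed near background. Its raw counts were 28, 22 and 20 in run 2 rRELMa samples, 16, 26 and 10 in run 2 PBS samples, 12, 19 and 16 in run 1 rRELMa samples and 14, 23 and 27 in run 1 PBS samples. The scaled level was higher in run 1, as was the scaled level of the negative controls. After subtraction the group means were 8.06 ± 2.09 in run 2 rRELMa, 4.81 ± 4.17 in run 2 PBS, 6.76 ± 6.84 in run 1 rRELMa and 9.75 ± 10.4 in run 1 PBS (SD, n = 3 each). Added to the fit after the data were seen, Cd40 was lower in run 2, at -0.78 with rRELMa (log2; adjusted p = 0.0147 in edgeR) and -1.30 with PBS (adjusted p = 0.000108). The background shift lies in the same direction, and 9 of the 12 values were within the background limit, so no call is drawn from it. With rRELMa against PBS its log2 difference was -0.0045 (adjusted p = 0.992).

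Ordered by mean level, Ccr7 and Ccl22 ran from run 2 rRELMa through run 2 PBS and run 1 rRELMa to run 1 PBS. Neighbouring groups in that order overlapped, except that all run 2 PBS samples were above all run 1 rRELMa samples for Ccr7. Cd86 ran from run 1 rRELMa through run 1 PBS and run 2 rRELMa to run 2 PBS, with a gap between the runs. Cd80 and Cd40 were highest in run 1 PBS and lowest in run 2 PBS, and the Ccl17 means of the 2 treatments were nearly equal within each run.

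The design sets rRELMa against PBS to find what RELMa changes in CD11c+ cells. For these genes the differences were small and none passed the test. In a fit to all 12 samples with a term for run, 0 of the 5 tested genes were called, against 1 of all 415 genes (0.241%). That gene was Arg1, which encodes the arginine-degrading enzyme arginase 1, and it is named here after its value was seen. An unadjusted p under 0.05 was reached by 32 of the 415 genes, of which Ccr7 was 1. DESeq2 and limma called 0 of the 5 as well.

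Ccr7 was the nearest to a call. All 6 rRELMa samples were above the PBS mean of their run. The share of all tested genes with this pattern was not counted. The log2 difference was 0.22 (SE 0.086, 95% interval 0.04 to 0.39), a level 16.1% higher with rRELMa, with an unadjusted p of 0.0184 and an adjusted p of 0.634 in edgeR's quasi-likelihood test. Within run 2 the log2 difference was 0.18 (-0.03 to 0.39) and within run 1 it was 0.30 (-0.03 to 0.62).

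For the chemokines, the log2 difference with rRELMa was 0.09 for Ccl22 (95% interval -0.13 to 0.31, adjusted p = 0.885 in edgeR) and -0.02 for Ccl17 (-0.35 to 0.31, adjusted p = 0.993). Each was above the PBS mean of its run in 3 of 6 rRELMa samples. For the costimulators it was 0.11 for Cd86 (-0.06 to 0.28, adjusted p = 0.772 in edgeR; 5 of 6 samples) and 0.03 for Cd80 (-0.23 to 0.29, adjusted p = 0.993; 3 of 6 samples). The width of these intervals differs with the counts behind them: the mean raw count was 48.9 for Ccl17 and 46.9 for Cd80, against 134 for Cd86, 190 for Ccl22 and 346 for Ccr7.

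Within single runs, 0 of 5 were called in run 2 (0 of all 415, 0%) and 0 of 5 in run 1 (1 of 415, 0.241%). An unadjusted p under 0.05 was reached by 31 genes in run 2 and 25 in run 1, none of the 5 among them. No gene of the 6 had rRELMa and PBS groups without overlap in either run, while 14.9% of tested genes did in run 2 (8.92% higher and 6.02% lower with rRELMa) and 12.5% in run 1 (7.71% higher and 4.82% lower). The test of whether the rRELMa effect differed between the runs gave log2 differences from -0.12 for Ccr7 to 0.22 for Cd80, with adjusted p from 0.959 to 0.984 in edgeR and 0 of 415 genes called (0%; 28 at an unadjusted p under 0.05).

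**Figure D2:**
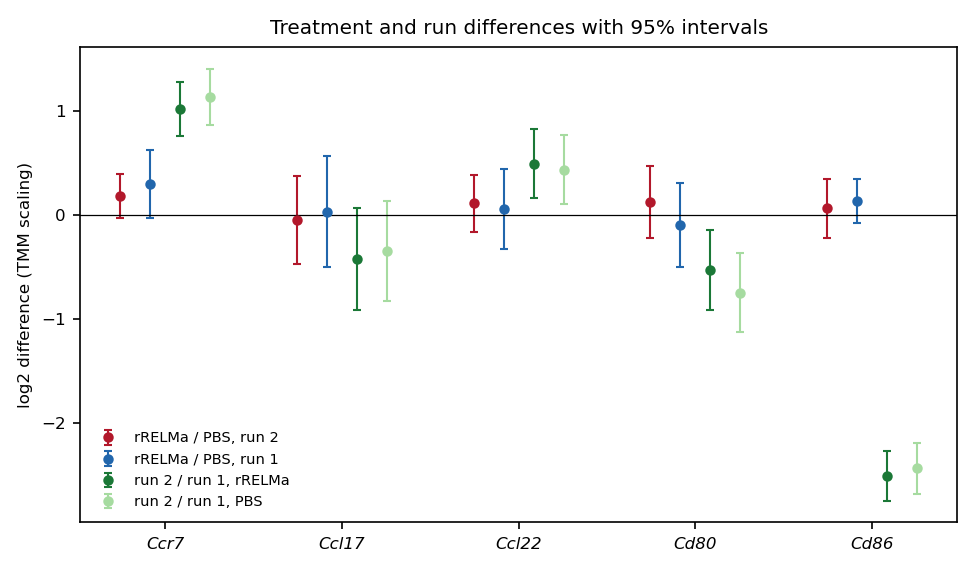
Log2 differences from the 4-group fit with TMM scaling (vertical axis) for the 5 tested genes, with bars for 95% intervals. The rRELMa against PBS intervals all cross 0, while the run 2 against run 1 values lie above 0 for Ccr7 and Ccl22 and below 0 for Cd80 and Cd86.

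Between the runs, Ccr7 and Ccl22 were higher and Cd80 and Cd86 lower in run 2, and Ccl17 was not called. In rRELMa-treated cells 4 of the 5 were called, 2 higher and 2 lower in run 2, where 63.4% of all tested genes were called (29.9% higher, 33.5% lower). In PBS-treated cells it was also 2 higher and 2 lower, where 65.8% of all tested genes were called (29.9% higher, 35.9% lower). With so many genes called across the panel, 4 of 5 is near the background share. The contrasts between treatments and between runs are drawn from the same 12 samples.

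Ccr7 was 2.03-fold higher in run 2 with rRELMa (log2 difference 1.02, SE 0.13, adjusted p = 4.1e-08 in edgeR) and 2.20-fold higher with PBS (1.14, SE 0.13, adjusted p = 1.02e-08). It ranked 23 with rRELMa and 21 with PBS among the 415 log2 differences, counted from the highest. Ccl22 was 1.41-fold higher with rRELMa (log2 difference 0.49, SE 0.16, adjusted p = 0.00926 in edgeR) and 1.35-fold higher with PBS (0.43, SE 0.16, adjusted p = 0.0198). It ranked 87 with rRELMa and 89 with PBS. Receptor and chemokine therefore moved the same way between the runs, by different amounts.

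Cd86 was 5.71-fold lower in run 2 with rRELMa (log2 difference -2.51, SE 0.12, adjusted p = 1.63e-17 in edgeR) and 5.43-fold lower with PBS (-2.44, SE 0.12, adjusted p = 6.37e-17). Counted from the lowest it ranked 14 with rRELMa and 13 with PBS of 415. Cd80 was 1.44-fold lower with rRELMa (log2 difference -0.53, SE 0.19, adjusted p = 0.0152 in edgeR) and 1.68-fold lower with PBS (-0.75, SE 0.18, adjusted p = 0.000829). Ccl17 was not called, at -0.42 with rRELMa (SE 0.24, adjusted p = 0.121 in edgeR) and -0.35 with PBS (SE 0.23, adjusted p = 0.196).

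By overlap, Ccr7 and Ccl22 were higher and Ccl17, Cd40 and Cd86 lower in every run 2 rRELMa sample than in any run 1 rRELMa sample, where 68% of tested genes did not overlap (33% higher and 34.9% lower). With PBS, Ccr7 was higher and Cd40, Cd80 and Cd86 were lower without overlap, against 67% of tested genes (31.1% higher and 35.9% lower). For Cd40, Cd80 and Ccl17 the higher scaled background of run 1 lies in the direction of the difference.

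How the libraries are scaled moves every gene between the runs. Run 1 gave fewer endogenous counts for each positive control count, which enters the positive control scaling alone. The median of all tested genes in run 2 against run 1 with PBS was -0.03 (log2) with TMM, -0.33 with the reference genes, -0.35 with library totals, 0.29 after subtraction of the negative controls and 1.59 with the positive controls. The split of called genes moved with it, from 124 higher and 149 lower with TMM to 63 and 206 with reference genes, 64 and 217 with library totals, 174 and 98 after subtraction and 366 and 20 with positive controls. Under all 5, Ccr7 and Ccl22 lay above that median and Ccl17, Cd80 and Cd86 below it.

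Ccr7 and Cd86 kept their direction and their call under each of these 5, with PBS values from 0.82 to 2.76 for Ccr7 and from -2.76 to -0.82 for Cd86. Ccl22 with PBS was at 0.14 with the reference genes (adjusted p = 0.477 in edgeR) and 0.11 with library totals (adjusted p = 0.550), no longer called. Its call with PBS also rested on single samples: it was 0.32 without run 1 PBS replicate 1 (adjusted p = 0.105 in edgeR) and 0.22 without run 2 PBS replicate 2 (adjusted p = 0.219). Cd80 after subtraction was at -0.47 with PBS (adjusted p = 0.117 in limma) and -0.14 with rRELMa (adjusted p = 0.649). With positive controls Cd80 was called the other way, higher in run 2, in both treatments. With TMM its rRELMa value was -0.30 without run 1 rRELMa replicate 1 (adjusted p = 0.229 in edgeR). Ccl17 was called lower with the reference genes (-0.64 with PBS, adjusted p = 0.0186 in edgeR), was at 0.05 after subtraction and was called higher with the positive controls.

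**Figure D3:**
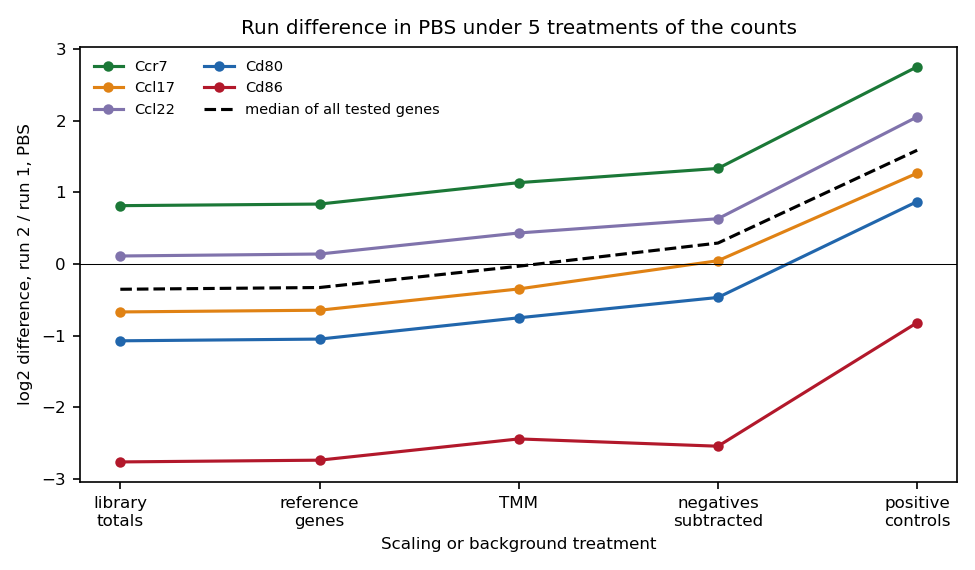
Log2 difference of run 2 against run 1 in PBS samples (vertical axis) for the 5 tested genes under 4 scalings and after subtraction of the negative controls (horizontal axis), with a dashed line for the median of all tested genes. The lines shift together between the 4 scalings, while the subtraction moves the genes by unequal amounts. Ccr7 is at the top and Cd86 at the bottom in each.

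Ratios of raw counts within a sample do not depend on any scaling, though the negative control level still adds to the low genes. A ratio of 2 probes also carries their efficiencies, so what can be read is its change between groups. Ccr7 over Cd86 was 6.90 to 8.57 in run 2 rRELMa samples and 5.13 to 8.15 in run 2 PBS samples, against 0.511 to 0.763 in run 1 rRELMa and 0.459 to 0.639 in run 1 PBS. That is 11.7-fold higher in run 2 with rRELMa and 11.9-fold higher with PBS (geometric means), with no overlap. These ratios were chosen after the data were seen and carry no test.

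Among the 15 pairs of the 6 genes, 12 had ratios that did not overlap between the runs with rRELMa and 13 with PBS. Pairs of other tested genes were not counted. Among single tested genes, 68% with rRELMa and 67% with PBS did not overlap between the runs. The pairs share genes, and those with Cd40 rest on counts near background. Ccl22 over Cd86 was 8.07-fold higher in run 2 with rRELMa and 7.28-fold higher with PBS. The 2 CD28 ligands also parted: Cd80 over Cd86 was 4.09-fold higher in run 2 with rRELMa and 3.22-fold higher with PBS. The neighbouring chemokine genes diverged in raw counts. Ccl17 over Ccl22 was 0.138 to 0.262 in run 2 rRELMa and 0.175 to 0.256 in run 2 PBS samples, against 0.287 to 0.495 in run 1 rRELMa and 0.299 to 0.452 in run 1 PBS. With the negative control mean subtracted, this ratio overlapped between the runs in both treatments. With rRELMa, Ccl17 and Ccl22 were then at 30.5 and 160 in run 1 replicate 1, and at 40.9 and 178 in run 2 replicate 3. With PBS they were at 25.9 and 132 in run 1 replicate 3, and at 55.5 and 238 in run 2 replicate 2. Ccl17 over Cd80, both genes of low count, overlapped between the runs in raw counts.

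Between treatments the ratios overlapped in all 15 pairs in run 2 and in 14 in run 1. The exception was Ccr7 over Ccl22 in run 1, at 1.31, 1.53 and 1.39 with rRELMa and 1.12, 1.17 and 1.24 with PBS, a 1.19-fold difference. In run 2 the same ratio was 1.97, 1.96 and 2.19 with rRELMa and 2.45, 1.83 and 1.59 with PBS, and the groups overlapped. Among single tested genes, 12.5% in run 1 and 14.9% in run 2 did not overlap between treatments.

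**Figure D4:**
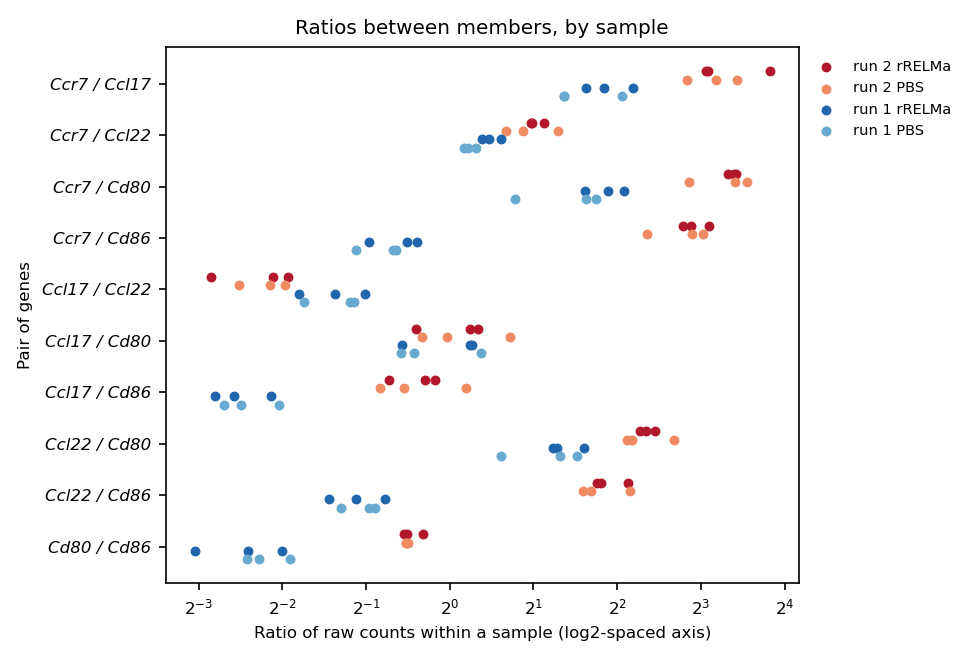
Ratio of raw counts of 2 genes within a sample (horizontal axis, log2-spaced) for the 10 pairs without Cd40, with a point for each of the 12 samples. Every pair with Cd86 separates the runs, Ccr7 over Cd86 by 11.7-fold with rRELMa and 11.9-fold with PBS. The rRELMa and PBS points of a run overlap, except for Ccr7 over Ccl22 in run 1.

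Each gene's profile across the 12 samples was then set against all tested genes, by the root mean square difference of log2 levels centred on each gene's mean. Nearest to Ccr7 were Fscn1 (0.187), which encodes the actin-bundling fascin of mature dendritic cells, Cd83 (0.220), a surface marker of their maturation, and Ccl3 (0.223), an inflammatory chemokine. Fscn1 averaged 235 ± 35.5 scaled counts in run 2 rRELMa, 229 ± 36.5 in run 2 PBS, 117 ± 31.0 in run 1 rRELMa and 86.3 ± 24.0 in run 1 PBS (SD, n = 3 each). Cd83 averaged 113 ± 20.3 in run 2 rRELMa, 98.4 ± 13 in run 2 PBS, 65.3 ± 11.3 in run 1 rRELMa and 58.2 ± 13.7 in run 1 PBS. Ccl3 averaged 113 ± 13.2 in run 2 rRELMa, 92.4 ± 9.76 in run 2 PBS, 62.0 ± 8.89 in run 1 rRELMa and 40.8 ± 3.05 in run 1 PBS. In run 1 PBS, Cd83 was above the detection limit in 2 of 3 samples and Ccl3 in 1 of 3.

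Nearest to Cd86 were Ccl5 (0.143), a chemokine for T cells and monocytes, Il1rn (0.200), the interleukin-1 receptor antagonist, and Cd1d1 (0.215), which presents lipid antigens. Ccl5 averaged 313 ± 20.5 scaled counts in run 2 rRELMa, 289 ± 27.7 in run 2 PBS, 1611 ± 107 in run 1 rRELMa and 1660 ± 40.6 in run 1 PBS (SD, n = 3 each). Il1rn averaged 315 ± 6.69 in run 2 rRELMa, 292 ± 32.6 in run 2 PBS, 1332 ± 71.0 in run 1 rRELMa and 1492 ± 40.9 in run 1 PBS. Cd1d1 averaged 114 ± 7.93 in run 2 rRELMa, 122 ± 10.9 in run 2 PBS, 530.5 ± 49.5 in run 1 rRELMa and 575 ± 21.1 in run 1 PBS. All 3 were high in the run where Cd86 was high, which follows from their choice by likeness over the same samples.

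Nearest to Ccl22 were Cnn2 (0.173), Tuba1a (0.188) and Vsir (0.201), which encode a calponin, an alpha tubulin and a checkpoint ligand. Nearest to Cd80 were Hif1a (0.176), a hypoxia factor, S100a8 (0.178), a calprotectin subunit, and Nfkbia (0.196), the NF-kB inhibitor. Nearest to Ccl17 were Il10ra (0.237) and Traf2 (0.246), and nearest to Cd40 Il21r (0.206), Tapbp (0.225) and H2-Aa (0.227). For Ccl17 and Cd40 the low counts limit what such a likeness can show. None of the 6 genes had another of the 6 among its 3 nearest. Ccl22 was 39th of 415 from Ccr7 (0.36), Ccl17 was 267th from Ccl22 (0.53), and Cd86 was 403rd from Ccr7 (1.78).

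**Figure D5:**
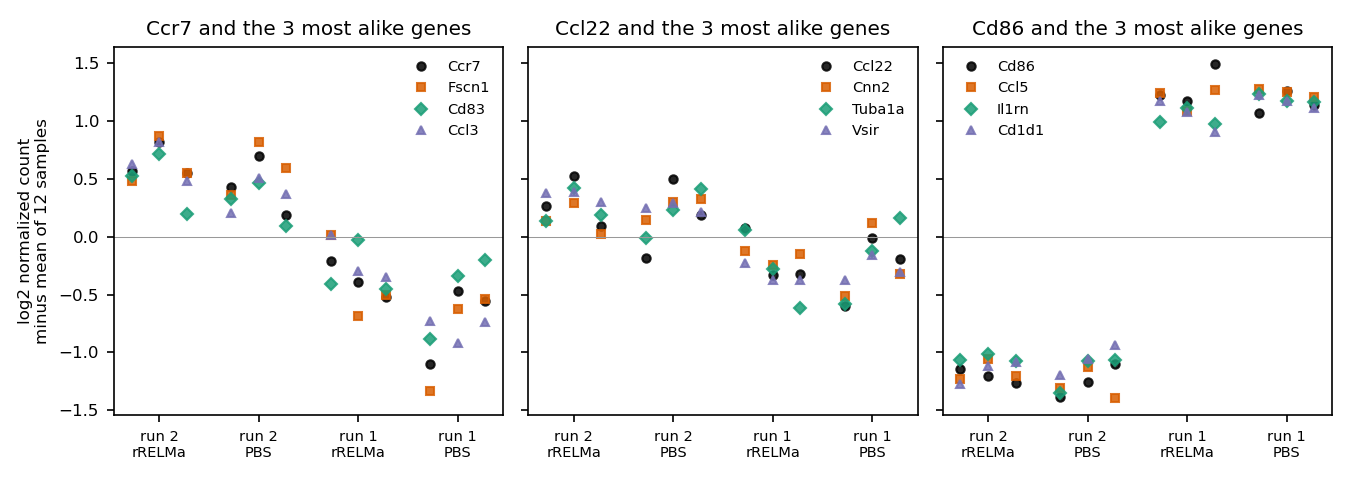
Log2 scaled count minus the gene's mean over the 12 samples (vertical axis) for Ccr7, Ccl22 and Cd86, each with its 3 nearest genes, for the 3 samples of each group (horizontal axis). Ccr7, Fscn1, Cd83 and Ccl3 are high in run 2, Ccl22 and its neighbours follow with a smaller step, and Cd86, Ccl5, Il1rn and Cd1d1 are high in run 1.

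The genes around CCR7 in the mature dendritic cell programme were examined as a list of 27, of which 18 were on the panel and 12 were tested. None was called with rRELMa, with a median log2 difference of 0.09 against 0.01 over all tested genes. Between the runs 5 were higher and 2 lower in run 2 with rRELMa (median 0.02, all genes -0.04), and the counts were the same with PBS (median 0.04, all genes -0.03). That is 7 of 12 called, against 63.4% of all tested genes with rRELMa and 65.8% with PBS. Fscn1 was higher by 1.02 with rRELMa and 1.38 with PBS (log2; adjusted p = 3.52e-06 and 4.16e-08 in edgeR), and Cd83 by 0.76 in both (adjusted p = 0.000395 and 0.000595). Il12b, the p40 subunit of interleukin-12, was higher by 1.00 and 1.91 with rRELMa and PBS (adjusted p = 0.00116 and 1.5e-06), but its 16.3 scaled counts in run 1 PBS were below the negative controls there. Adam8, a membrane protease, and Il21r, a cytokine receptor, were lower in run 2, Adam8 at -1.26 with rRELMa and -1.20 with PBS, Il21r at -1.02 with rRELMa and -1.16 with PBS.

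The 2 genes of that list with the smallest unadjusted p with rRELMa did not pass adjustment. Icam1, the adhesion ligand of LFA-1, had a log2 difference of -0.28 (adjusted p = 0.634 in edgeR), and Stat4, a transcription factor of interleukin-12 signalling, 0.33 (adjusted p = 0.654).

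A list of 20 other ligands that costimulate or restrain T cells, which also held receptors such as Havcr2, had 15 genes on the panel and 6 tested. With rRELMa none was called (median 0.11, all genes 0.01). In run 2 against run 1, 1 was higher and 3 were lower with rRELMa (median -0.55, all genes -0.04) and with PBS (median -0.44, all genes -0.03), against 63.4% and 65.8% of all tested genes called. The higher one was Cd83. Cd274, which encodes PD-L1, was lower, at -1.19 with rRELMa and -1.03 with PBS (log2; adjusted p = 6.12e-16 and 1.89e-14 in edgeR). Pdcd1lg2, encoding PD-L2, was lower at -0.74 with rRELMa and -0.63 with PBS. Havcr2, encoding the inhibitory receptor TIM-3, was lower at -0.55 with rRELMa and -0.35 with PBS.

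Of a list of CD40 and TNF receptor signalling to NF-kB, which includes both TNF receptors, 11 genes were on the panel and all 11 were tested, with none called with rRELMa (median -0.02). In run 2 with rRELMa, 1 was higher and 4 were lower (median -0.14), and with PBS 1 was higher and 3 lower (median -0.11), where 63.4% and 65.8% of all tested genes were called. Tnfrsf1a, a TNF receptor, was higher at 0.35 with rRELMa and 0.32 with PBS. The adaptor Traf2 was lower at -0.53 with rRELMa and -0.47 with PBS, and the inhibitor Nfkbia at -0.39 with rRELMa and -0.51 with PBS. Tnfrsf1b, the second TNF receptor, was at -0.14 in both, called with PBS (adjusted p = 0.0479 in edgeR) and just past the threshold with rRELMa.

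Upstream of Ccl17 and Ccl22, 7 of 16 type 2 cytokine receptors and factors were on the panel and 6 were tested. None was called with rRELMa (median 0.02). In run 2 with rRELMa 2 were higher and 1 was lower (median 0.02), and with PBS 3 were higher and 1 lower (median 0.21), beside the 63.4% and 65.8% called over all tested genes. Stat6, which carries the interleukin-4 signal, was higher by 0.43 with rRELMa and 0.41 with PBS (log2; adjusted p = 2.9e-05 and 4.5e-05 in edgeR). Il4ra, the receptor chain that activates Stat6, was lower, at -0.66 with rRELMa and -0.59 with PBS (adjusted p = 1.34e-05 and 7.34e-05). Stat5a was higher at 0.37 with rRELMa and 0.47 with PBS, and Csf2ra, the GM-CSF receptor chain, was at -0.08 with rRELMa and 0.18 with PBS, called with PBS alone (adjusted p = 0.0221). Stat5b was at -0.17 with rRELMa against PBS (adjusted p = 0.634).

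Of 13 other chemokine receptors and partners, 12 were on the panel. Ccr1 was lower in run 2 at -0.60 with rRELMa and -0.80 with PBS, and Cxcr4, the CXCL12 receptor, was higher at 0.72 with rRELMa and 0.77 with PBS. Of 11 antigen presentation genes, mainly class II genes with the class I-like Cd1d1 among them, 7 were tested, with 1 higher and 6 lower in run 2 in both treatments, where 63.4% and 65.8% of all tested genes were called (median -0.88 with rRELMa, -1.03 with PBS). With rRELMa, H2-Ab1 was at -1.12, H2-Aa at -0.86, H2-Eb1 at -0.61 and Cd1d1 at -2.23. With PBS, H2-Ab1 was at -1.27, H2-Aa at -1.03, H2-Eb1 at -0.72 and Cd1d1 at -2.25, and all 4 were lower in run 2, as was Cd86. None of the 7 was called with rRELMa against PBS (median 0.02).

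The runs also differed in markers of the cells a CD11c gate can hold. Itgax, which encodes CD11c, was above the detection limit in 12 of 12 samples and was higher in run 2 (log2 difference 1.12 with rRELMa, 1.25 with PBS). Of 16 conventional dendritic cell markers, 8 were on the panel and 5 were tested. Their summed level was 1030 to 1096 scaled counts in run 2 rRELMa and 1025 to 1118 in run 2 PBS, against 672 to 822 in run 1 rRELMa and 669 to 706 in run 1 PBS. Itgax, which alveolar macrophages share, had the highest mean count of the list and so weighed most in that sum. Clec9a was lower in run 2 (-2.18 with rRELMa, -2.08 with PBS), Irf8 and Flt3 were not called, Batf3 was called higher with PBS alone (0.47, adjusted p = 0.0412 in edgeR; 0.40 with rRELMa), and Xcr1 and Cd209e were above the limit in 0 of 12 samples.

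Alveolar macrophage markers were higher in run 2 for 6 of the 7 on the panel, all tested, where 29.9% of all tested genes were called higher in each treatment. The 7 markers summed to 113410 to 119051 scaled counts in run 2 rRELMa and 108679 to 111379 in run 2 PBS, against 73167 to 80395 in run 1 rRELMa and 72785 to 81813 in run 1 PBS. Nearly all of that sum was Chil3, with a mean raw count of 97272 against 3856 for Cd36, the next highest. The 2 tested monocyte markers were lower: Ly6c1 at -3.75 with rRELMa and -3.87 with PBS, and Cd14 at -1.61 with rRELMa and -1.77 with PBS. Ly6c1 was above the detection limit in 6 of 12 samples, so the size of its difference rests partly on background counts. The 4 monocyte markers on the panel summed to 124 to 145 in run 2 rRELMa, 114 to 128 in run 2 PBS, 482 to 493 in run 1 rRELMa and 503 to 537 in run 1 PBS. Interstitial macrophage markers summed to 2943 to 3315 and 3156 to 3385 in run 2 rRELMa and PBS, against 3215 to 3408 and 3253 to 3612 in run 1. Of their 10 tested genes, 1 was higher and 5 were lower in run 2 in both treatments (median -0.36 with rRELMa, -0.44 with PBS). Over all tested genes, 63.4% with rRELMa and 65.8% with PBS were called. Of the plasmacytoid dendritic cell markers, Irf7 and Ccr9 were on the panel. Their sum was 109.8 to 160.5 in run 2 rRELMa and 135 to 160.3 in run 2 PBS, against 1992 to 2049 in run 1 rRELMa and 1987 to 2157 in run 1 PBS. Nearly all of that sum was Irf7, with a mean raw count of 707 against 14.8 for Ccr9. Since Ccr9 was above the limit in 0 of 12 samples, the difference rests on Irf7 alone. The 4 epithelial, endothelial or stromal markers summed to 991 to 1068 in run 2 rRELMa and 986 to 1106 in run 2 PBS, against 2299.8 to 2736 in run 1 rRELMa and 2397 to 2485 in run 1 PBS. Nearly all of that sum was Cav1, which was lower in run 2 (-1.31 with rRELMa, -1.28 with PBS), while Cdh1 was higher with rRELMa (1.01, adjusted p = 0.00155 in edgeR) and not called with PBS (0.20). The 10 neutrophil markers summed to 670.3 to 811 in run 2 rRELMa and 745 to 875 in run 2 PBS, against 654 to 749 in run 1 rRELMa and 658 to 715 in run 1 PBS. Those ranges overlapped with rRELMa and not with PBS, and of the 2 tested markers 1 was higher and 1, S100a8, was lower in run 2. Only Mmp8 and S100a8 were above the detection limit, in 12 of 12 samples each. The other neutrophil markers were above it in 0 of 12 samples. Their background counts, higher in run 1 once scaled, enter the sums, so the overlap of the ranges depends partly on background. Of the 5 eosinophil markers, 4 were above the limit in 0 of 12 samples. The fifth, Siglecf, is also on the alveolar macrophage list and was higher in run 2 (1.39 with rRELMa, 1.75 with PBS). It was above the limit in 8 of 12 samples. No marker of T cells, B cells or NK cells (1 on the panel for each), or of mast cells or basophils (7), reached the minimum for testing. The part of these cell markers in the run differences of Ccr7, Ccl22, Cd80 and Cd86 was not tested. With rRELMa against PBS, no gene of the dendritic cell, alveolar macrophage or monocyte marker lists was called.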

How the data were processed

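The samples were 12 lysates of about 5000 mouse lung CD11c+ cells, hybridised for 18 h at 65 °C per the labels' protocols. The deposited values were whole-number counts for 768 probes (754 endogenous, 6 positive and 8 negative controls) with a lowest value of 1, and the control probes showed that the authors had not scaled them. No source used here names the counting software. Groups came from the sample titles. Of the 754 gene names, 744 were current symbols in RefSeq, 9 were synonyms and 1 was not found.

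Genes with a mean count of at least 20 were tested, without 20 reference genes, which left 415 genes and 319 below the minimum. edgeR 4.0.16 (glmQLFit and glmQLFTest, limma 3.58.1, R 4.3.3) was fitted with TMM scaling over all 12 samples, once with treatment and run and once with 1 coefficient per group. Tests were two-sided, and p-values were adjusted by Benjamini and Hochberg over all tested genes. The common biological coefficient of variation was 5.002%. Alternatives were other scalings, DESeq2 1.42.0, limma on log2 counts plus 1, other count minimums, subtraction of the negative control mean, a replicate block and leaving out each sample. The method was tested on simulated data. Replicates of a group differed by more than sampling noise in every pair (largest p = 4.27e-12, chi-square test of counts over all tested genes), and each was counted separately.

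All 6 genes are given in every sample. From each gene list, up to 4 other genes with the smallest p between the runs in PBS and up to 2 with the smallest p for rRELMa were named, and for each of the 6 genes the 3 with the nearest profile. Some genes that this rule names are not reported here. The genes and lists were chosen with earlier results of these data known. The 12 samples limit the precision, and the SDs and intervals rest on 3 samples a group.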

Additional observations from a re-analysis of the deposited data

How the results depend on the processing

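Ccr7 (higher) and Cd86 (lower) kept direction and call in run 2 against run 1 in all 10 other settings and all 12 fits without 1 sample, in both treatments, and no setting called any of the genes for rRELMa. Ccr7 for rRELMa against PBS with run as a block stayed positive in the same settings (log2 0.15 to 0.32, adjusted p 0.0923 to 1.00 in edgeR, limma or DESeq2). With a mean count of at least 50, 3 genes were left to test and 2 were called between the runs in PBS, against 4 of 5, since Ccl17 and Cd80 drop out and Ccl22 was at 0.37 (adjusted p = 0.0584). Ccl22 also lost its call with limma (0.44, adjusted p = 0.0823 with PBS; 0.49, adjusted p = 0.057 with rRELMa), and with rRELMa under reference gene (0.15) and library total scaling (0.098). Cd80 lost it without a filter (-0.38, adjusted p = 0.0778 with PBS; -0.13 with rRELMa) and with DESeq2 in rRELMa (-0.49, adjusted p = 0.0719). Ccl17 gained a call as lower with library totals (-0.67 with PBS, -0.82 with rRELMa), with reference genes in rRELMa (-0.76) and without run 2 PBS replicate 2 (-0.74, adjusted p = 0.00701). Cd40 was at -0.93 with PBS (adjusted p = 0.0038) and -0.38 with rRELMa (adjusted p = 0.237) without a filter. The cause of these changes was not tested. Signs turned between the runs for Ccl17 with positive controls (1.27 with PBS, 1.53 with rRELMa), no filter (0.020, PBS) and negative controls subtracted (0.047, PBS), and for Cd80 with positive controls (0.87 with PBS, 1.43 with rRELMa). With positive controls Ccl17 and Cd80 were called higher in run 2 in both treatments. The median of all tested genes was then 1.59 with PBS and 1.91 with rRELMa. For rRELMa against PBS with run as a block they turned for values near 0: Ccl17 with positive controls (0.0023), limma (0.040), no filter (0.013) and negative controls subtracted (0.14), Cd40 with no filter (0.022), and Cd80 with reference genes (-0.0077), library totals (-0.0020), DESeq2 (-0.013), limma (-0.023), negative controls subtracted (-0.010) and no run term (-0.030). In run 1 they turned with positive controls for Ccl17 (-0.15), Ccl22 (-0.13) and Cd86 (-0.041) and with DESeq2 for Ccl17 (-0.0066). In run 2 they turned for Ccl17 with positive controls (0.11), limma (0.036) and negative controls subtracted (0.085). The difference of effects turned with positive controls for Ccr7 (0.22), Ccl17 (0.26) and Cd86 (0.26), and with library totals for Ccl22 (-0.015). Without 1 sample, the block values ranged from -0.12 to 0.19 for Ccl17, -0.022 to 0.21 for Ccl22 and -0.051 to 0.059 for Cd80. The run 1 values ranged from -0.19 to 0.29 for Ccl17, -0.11 to 0.16 for Ccl22 and -0.010 to 0.16 for Cd86, and the run 2 values from -0.24 to 0.35 for Ccl17, -0.067 to 0.32 for Ccl22 and -0.0060 to 0.12 for Cd86. The difference of effects ranged from -0.23 to 0.048 for Ccr7, -0.36 to 0.32 for Ccl17, -0.12 to 0.27 for Ccl22 and -0.14 to 0.054 for Cd86. Samples with the same number did not deviate together across the tested genes (correlations of -0.0785 to -0.0275 within runs). These correlations cannot show whether such samples share an animal or culture. A replicate block changed no call of these genes: Ccr7 with rRELMa was at 0.23 (adjusted p = 0.361 in edgeR), and between the runs in PBS Ccr7 was at 1.13, Ccl22 at 0.42, Cd80 at -0.76 and Cd86 at -2.43.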
